A study of Arabidopsis thaliana with 9 samples.

Results

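The genes described here are 10 calmodulin-like genes of Arabidopsis. Of these, 9 are known for responses to touch, wounding and other stress. They are *TCH2* (AT5G37770), *TCH3* (AT2G41100), *CAM9* (AT3G51920, or *CML9*), *CML23* (AT1G66400), *CML37* (AT5G42380), *CML38* (AT1G76650), AT1G76640 (or *CML39*), *CML41* (AT3G50770) and *CML42* (AT4G20780). The last, AT3G29000, is annotated as a calcium-binding EF-hand protein. Together they are 10 of the 33602 loci with a value. The set was chosen with earlier results of these data known. The first 9 were listed by name, and AT3G29000 was selected on measured values of these libraries, because it was higher in both mutants than in Col-0. The differences of the 10 genes from Col-0 are therefore a description, and no p is given for them. The study asked how the B-box protein BBX11 and the transcription factor PIF4 act in red light signalling. RNA was sequenced from whole seedlings, 4 d old, of Col-0 (the wild type), of *bbx11-1* and of *pif4-2*, with 3 libraries of each genotype. The labels call the Col-0 libraries the wild-type control for BBX11 and do not name them as a control for *pif4-2*. Whether *pif4-2* was grown and sequenced together with the others is not given in the sources used here. A batch and the genotype therefore cannot be told apart in comparisons with *pif4-2*. Both mutants are in the Col-0 background, and all 3 genotypes grew on the same sucrose-containing medium in constant red light of 94 μmol/m2/s.

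Calcium ions act as a messenger in plant cells: touch, wounding, cold and pathogens raise free calcium in the cytosol for a short time. Calmodulin and the calmodulin-like proteins (CMLs) bind this calcium through EF hands, loops between helices that hold 1 ion each, and then bind and regulate other proteins. The *TCH* (touch) genes were found because their transcripts rise quickly when plants are touched or sprayed, and many *CML* transcripts behave in the same way.

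On the TAIR10.1 annotation the 10 genes lie on all 5 chromosomes. *TCH2* (chr5:14997514-14999619, minus strand) encodes 161 residues with 4 matches to an EF-hand loop pattern. *TCH3* (chr2:17137037-17139700, plus strand) is the longest, with 324 residues and 6 matches. *CAM9* (chr3:19267951-19269658, minus strand) and AT3G29000 (chr3:11005638-11006514, plus strand) have 2 matches each, *CML23* (chr1:24770419-24771393, minus strand) has 4, and each of the other 5 has 3. The 10 include 2 pairs of close relatives. The proteins of *TCH2* and *CML23* are identical at 76.4% of aligned residues, and those of *CML38* (chr1:28766750-28768138, minus strand) and AT1G76640 (chr1:28765254-28765866, minus strand) at 72.4%. *CML38* and AT1G76640 stand in tandem, 884 bp apart. The first EF-hand loop of these 4 genes is shown as coding sequence, read from the RefSeq TAIR10.1 genome, because these 2 pairs are the closest relatives among the 10 while the levels within each pair were far apart in these seedlings. Capitals mark the codons of the 6 loop positions that coordinate calcium.
TCH2 (chr5:14999450-14999485, minus strand): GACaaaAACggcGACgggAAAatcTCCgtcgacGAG
CML23 (chr1:24771225-24771260, minus strand): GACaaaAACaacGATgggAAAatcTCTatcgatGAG
CML38 (chr1:28767254-28767289, minus strand): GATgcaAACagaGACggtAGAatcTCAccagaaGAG
AT1G76640 (chr1:28765678-28765713, minus strand): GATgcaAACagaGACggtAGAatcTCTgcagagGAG
The loops of *TCH2* and *CML23* are identical at 30 of 36 bases, close to the 29 of 36 shared by *TCH2* and *CML42*, and those of *CML38* and AT1G76640 at 33 of 36. No stretch of 50 bases of any member but *TCH3* occurred a second time in the genome, so reads of that length separate the pairs. In *TCH3* 6.71% of such stretches occurred again, 152 of 161 of them only within *TCH3* itself, whose EF hands are internal repeats.

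The libraries held 16.2 M to 22.1 M reads as inferred from the spacing of their lowest values. *BBX11* (AT2G47890) was at 15.72, 16.37 and 78.24 FPKM in Col-0 but only at 7.66 to 10.72 FPKM in *bbx11-1*, and *PIF4* ranged from 25.72 to 35.23 FPKM in Col-0 and from 16.25 to 17.51 FPKM in *pif4-2*. Library 3 of Col-0 thus stood apart for *BBX11*. FPKM is the number of fragments of a transcript, scaled to its length and to the mapped fragments of the library. Of the marker lists for cell types, the summed level of 3 photosynthesis genes overlapped between Col-0 and each mutant (29700 to 38600 FPKM in Col-0, 33600 to 35300 FPKM in *pif4-2*), as did those of 5 root, 2 guard cell and 3 seed storage genes. The sum of the shoot apex markers *STM* and *CLV3* was lower in *pif4-2* (1.46 to 1.62 FPKM) than in Col-0 (2.08 to 2.53 FPKM), with *CLV3* near 0 in every genotype. The part of this difference in the results was not tested. In whole seedlings, fewer cells of a type and less RNA per cell cannot be told apart.

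*TCH3* had the highest level of the 10 genes in every library. It encodes a calcium sensor whose transcript rises on touch, darkness and heat. Col-0 libraries 1, 2 and 3 held it at 72.52, 148.13 and 95.85 FPKM. In *bbx11-1* they were 150.30, 142.87 and 150.34 FPKM, and in *pif4-2* 252.48, 243.64 and 217.75 FPKM. All *pif4-2* libraries were above all others, while the second Col-0 library lay among those of *bbx11-1*. The means were 106 ± 38.7 FPKM in Col-0, 148 ± 4.30 FPKM in *bbx11-1* and 238 ± 18.0 FPKM in *pif4-2* (SD, n = 3). On the log2(FPKM + 0.5) scale, *TCH3* was higher than Col-0 by 1.23 (SE 0.19) in *pif4-2* and by 0.55 (SE 0.19) in *bbx11-1*. Without the first Col-0 library these values were 0.99 and 0.31, and without the second they were 1.5 and 0.82. Its exons overlap 2 annotated genes of the opposite strand, AT2G41105 by 272 bases and the non-coding AT2G09220 by 243 bases, and the strand setting of the counting is not given in the sources used here.

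*TCH2*, which is also called *CML24* and is known for roles in touch response, ion stress and flowering time, followed the same order. It was at 36.66, 68.36 and 49.65 FPKM in Col-0, at 61.82, 65.76 and 71.02 FPKM in *bbx11-1* and at 94.30, 97.40 and 94.57 FPKM in *pif4-2*. Again the *pif4-2* libraries were above all others and nearly equal to each other, and again the second Col-0 library reached the level of *bbx11-1*. The difference from Col-0 was 0.93 (SE 0.17) in *pif4-2* and 0.40 (SE 0.17) in *bbx11-1* on the log2 scale, or 1.85 and 1.28 times as ratios of mean FPKM. Without the second Col-0 library the differences were 1.15 and 0.63, and without the first they were 0.71 and 0.18. *TCH2* overlaps AT5G37760 of the opposite strand by 419 exonic bases, but that gene was at no more than 0.60 FPKM in any library.

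*CAM9* encodes a divergent calmodulin-like protein known for roles in abscisic acid and salt responses and in immunity. It was at 42.52, 51.99 and 48.60 FPKM in Col-0, at 59.39, 54.86 and 60.55 FPKM in *bbx11-1* and at 65.83, 66.40 and 66.69 FPKM in *pif4-2*. The 3 genotypes did not overlap, yet the step was small, with ratios of the means to Col-0 of 1.22 in *bbx11-1* and 1.39 in *pif4-2*. *CML23*, the close relative of *TCH2* and known with it from flowering time and nitric oxide responses, did not share this order. Its levels were 4.14, 6.65 and 4.99 FPKM in Col-0, 4.88, 7.76 and 6.93 FPKM in *bbx11-1* and 5.20, 6.80 and 5.13 FPKM in *pif4-2*. All 3 genotypes overlapped, and the *pif4-2* mean was 1.09 times that of Col-0.

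*CML38*, known from wounding and low oxygen, where its protein enters RNA stress granules, was at 7.90, 14.92 and 7.37 FPKM in Col-0. It was at 18.12, 13.92 and 20.29 FPKM in *bbx11-1* and at 31.19, 27.70 and 26.33 FPKM in *pif4-2*. The *pif4-2* libraries were above all others, and the second Col-0 library was above the lowest of *bbx11-1*. The log2 difference from Col-0 was 1.52 (SE 0.22) in *pif4-2*, the largest among the 8 members tested, and 0.82 (SE 0.22) in *bbx11-1*. The rank depends on the scale, since the *pif4-2* to Col-0 ratio of mean FPKM was 2.82 for *CML38* and 3.12 for AT3G29000. Leaving out the second Col-0 library gave log2 differences of *CML38* of 1.83 and 1.13. Without the first the values were 1.39 and 0.69, and without the third 1.34 and 0.64.

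AT1G76640, the tandem neighbour of *CML38* and known from early seedling growth and fruit and seed development, was close to the limit of detection. It was at 1.59, 0.51 and 0.23 FPKM in Col-0, at 0.44, 0.21 and 0.24 FPKM in *bbx11-1* and at 0.22, 0.31 and 0.09 FPKM in *pif4-2*. At the inferred depth these values amount to about 1.2 to 16.5 reads a library. The first Col-0 library stood apart, and the genotypes overlapped. *CML37*, a relative of both and known from wounding, insect feeding and drought, was also low, at 0.37, 0.16 and 0.21 FPKM in Col-0, 0.94, 0.84 and 0.87 FPKM in *bbx11-1* and 0.40, 1.26 and 0.68 FPKM in *pif4-2*. Each mutant library of *CML37* was above each Col-0 library, on about 3.6 to 34.9 reads a library. Both genes were below the filter on low values (the mean of 1 genotype or more had to reach 1 FPKM), so neither entered the tests. No difference in AT1G76640 between genotypes was detectable at this depth.

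*CML41* encodes a protein of plasmodesmata, the channels between plant cells, which close during immune responses. It was at 3.79, 2.69 and 2.52 FPKM in Col-0, at 5.44, 2.98 and 3.63 FPKM in *bbx11-1* and at 5.10, 6.34 and 5.73 FPKM in *pif4-2*. *pif4-2* was above Col-0 in every library but overlapped *bbx11-1*, whose first library stood apart. The log2 difference of *pif4-2* from Col-0 was 0.84 (SE 0.20).

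*CML42*, known from trichome branching and insect feeding, had the least spread in Col-0, with 7.95, 8.0 and 7.99 FPKM. It was at 7.40, 7.88 and 8.64 FPKM in *bbx11-1* and at 11.77, 13.17 and 11.22 FPKM in *pif4-2*. It was the only one of the 8 tested members with the *bbx11-1* mean at the level of Col-0 (ratio 0.999) and the *pif4-2* libraries all higher (ratio 1.51).

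AT3G29000, annotated as a calcium-binding EF-hand protein, was at 1.94, 2.81 and 1.67 FPKM in Col-0, at 4.36, 5.63 and 4.43 FPKM in *bbx11-1* and at 6.26, 8.36 and 5.44 FPKM in *pif4-2*. These are the values it was selected on. Both mutants were above all Col-0 libraries, and the highest *bbx11-1* library was above the lowest of *pif4-2*. The log2 difference from Col-0 was 1.02 (SE 0.19) in *bbx11-1*, just past the 2-fold limit, and 1.45 (SE 0.19) in *pif4-2*. Of the other tested members, the nearest to that limit in *bbx11-1* was *CML38* at 0.82.

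**Figure D1:**
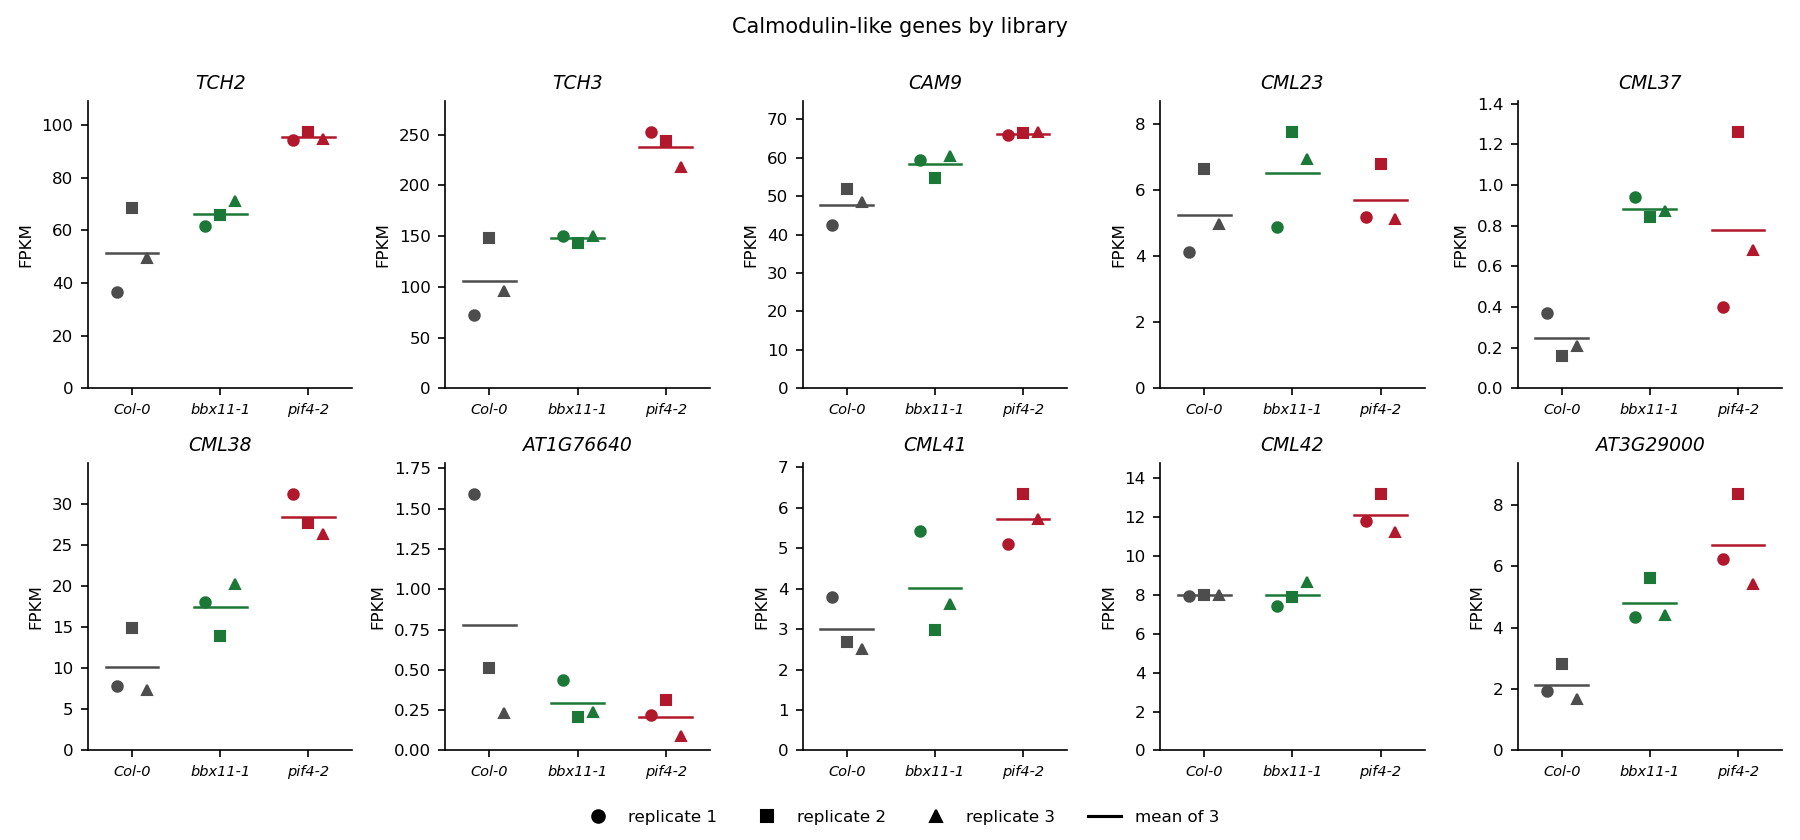
FPKM (y axis, from 0, a separate scale for each gene) of the 10 calmodulin-like genes in the 3 libraries of Col-0, *bbx11-1* and *pif4-2*; symbols mark the replicate number and lines the mean of 3. The 3 *pif4-2* libraries lie above all others for *TCH2*, *TCH3*, *CAM9*, *CML38* and *CML42*, and the second Col-0 library (square) reaches the *bbx11-1* values of *TCH2* and *TCH3*.

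Within Col-0 the genes ordered by mean level were *TCH3* (106 FPKM), *TCH2* (51.6 FPKM), *CAM9* (47.7 FPKM), *CML38* (7.37 to 14.92 FPKM), *CML42* (7.98 FPKM), *CML23* (5.26 FPKM), *CML41* (3.00 FPKM), AT3G29000 (2.14 FPKM), AT1G76640 (0.777 FPKM) and *CML37* (0.247 FPKM). FPKM is scaled to transcript length, but the lengths used are not given in the sources used here. Comparison of these levels between genes is therefore approximate. The libraries of neighbours in this order overlapped for *TCH2* and *CAM9*, *CML38* and *CML42*, *CML41* and AT3G29000, and AT1G76640 and *CML37*. In *pif4-2*, AT3G29000 (6.69 FPKM), *CML41* (5.72 FPKM) and *CML23* (5.71 FPKM) stood together, with overlapping libraries.

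Of the 10 members, 8 passed the filter and entered the fit across all 19169 genes that passed. All 8 also averaged over 1 FPKM in Col-0. A gene is called changed where limma gave a Benjamini-Hochberg adjusted p under 0.05 and the groups differed 2-fold or more. Against Col-0, *TCH3* and *CML38* were past both limits and higher in *pif4-2*, where 0.783% of all tested genes were changed and higher and 0.35% changed and lower. AT3G29000 was past them in *pif4-2* and in *bbx11-1*, on the values it was selected on, and no other tested member was in *bbx11-1*, where 0.0887% of all genes were changed and higher and 0.0574% lower. Every *pif4-2* library was above every Col-0 library for 7 of the 8 members, against 10.2% of all tested genes. For *bbx11-1* this held for 2 of 8 (*CAM9* and AT3G29000), against 6.78%. The median log2 difference of the 8 members was 0.89 in *pif4-2* and 0.37 in *bbx11-1*, beside -0.02 and 0.00 over all tested genes. Both contrasts selected AT3G29000 and share the Col-0 libraries, so the limits serve here only to set the members beside all genes, and nothing is read from the counts. AT3G29000 fell short of the limits in *bbx11-1* when any library other than the second of Col-0 was left out, and without that second library *CML38* was past them as well. In *pif4-2*, *TCH2* was added without the second Col-0 library, and *TCH3* fell below the 2-fold limit without the first.

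AT3G29000 was selected on both mutants against Col-0, not on the direct comparison of the mutants. The set was chosen with earlier results of these data known, so whether this comparison played a part is not known. *CML42* was lower in *bbx11-1* than in *pif4-2* by a log2 difference of -0.57 (SE 0.09, limma, adjusted p = 0.00975), with no overlap of the libraries. That is below the 2-fold limit, so it does not count as changed. For the other members the adjusted p from limma was above 0.05. *TCH3* differed by -0.68 (SE 0.19, limma adjusted p = 0.109), *CML38* by -0.70 (SE 0.22, limma adjusted p = 0.155) and *TCH2* by -0.53 (SE 0.17, limma adjusted p = 0.160). The libraries of each of these 3 genes did not overlap between the mutants, *bbx11-1* being lower throughout. *CML41* differed by -0.49 (SE 0.20), AT3G29000 by -0.43 (SE 0.19) and *CAM9* by -0.19 (SE 0.08), with limma adjusted p of 0.268, 0.32 and 0.318. *CML23* was the one member with a positive difference (0.17, SE 0.19, limma adjusted p = 0.748). In all, 0 of 8 members were changed by limma in this comparison (0.412% of all tested genes were changed and higher in *bbx11-1* and 0.224% lower), although 7 of 8 had an unadjusted p below 0.05, as had 14.9% of all tested genes. The *bbx11-1* libraries were all below those of *pif4-2* for 5 of 8 members, against 9.8% of all tested genes. With the comparison fitted on these genotypes only, the limma adjusted p was 0.00292 for *TCH3*, 0.00653 for *TCH2* and 0.0263 for *CML38*, still below 2-fold. With 1 library left out it ranged from 0.0115 to 0.30, from 0.0227 to 0.353 and from 0.0249 to 0.38. Between these mutants the summed markers also did not overlap for seed storage genes (30.5 to 38.1 FPKM in *bbx11-1*, 16.5 to 25.1 FPKM in *pif4-2*). The same held for shoot apex (1.91 to 2.33 and 1.46 to 1.62 FPKM) and root (40.4 to 51.1 and 52.0 to 53.7 FPKM). The seed sum was mostly *CRA1* (means 33.3 and 19.1 FPKM), while the low *OLEO1* (1.94 and 2.23 FPKM) and *SESA4* (0.0533 and 0.22 FPKM) went the other way. No single root marker was separate between the mutants, and *SCR* (16.6 and 15.6 FPKM) went against the root sum. The part of the markers in the differences was not tested.

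**Figure D2:**
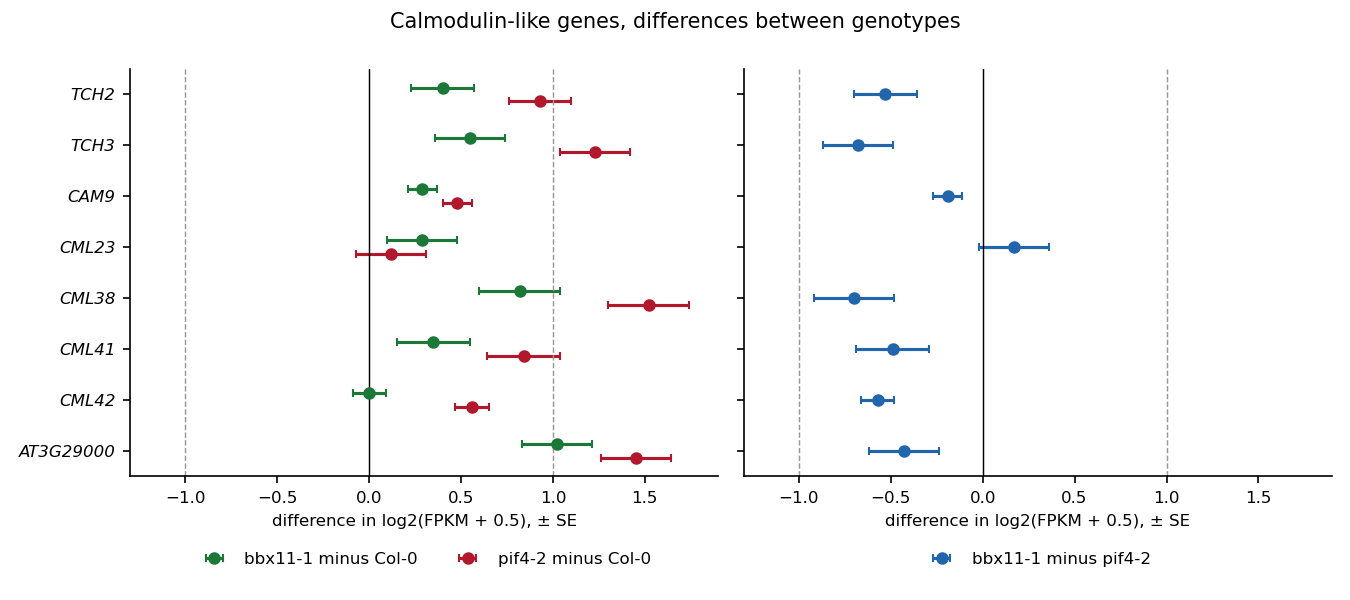
Differences between genotypes of the 8 tested members in log2(FPKM + 0.5), with SE bars from the limma fit; the left panel shows each mutant minus Col-0, the right panel *bbx11-1* minus *pif4-2*, and dashed lines mark a 2-fold difference. In the left panel *pif4-2* lies to the right of *bbx11-1* for every member but *CML23*, and in the right panel no member reaches the 2-fold limit.

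The spread among replicates of 1 genotype was itself shared by several members. The second Col-0 library was above the Col-0 mean for 7 of 8 members, by 0.29 on the log2 scale averaged over the 8, and the first was above it for 1 of 8, with a mean deviation of -0.18. In Col-0 the highest library was 2.04 times the lowest for *TCH3*, 1.86 times for *TCH2* and 2.02 times for *CML38*. In *pif4-2* the same ratios were 1.16, 1.03 and 1.18. *CML42* showed the reverse, with 1.01 in Col-0 and 1.17 in *pif4-2*. Across the 9 libraries *TCH2* and *TCH3* had a Pearson correlation of 0.99, and of 0.95 after the genotype means were subtracted. For *TCH2* and *CML38* these values were 0.94 and 0.74. *CML41* went along with *TCH2* over the 9 libraries (0.58) but not within genotypes (-0.50). These correlations describe 9 libraries that share 3 genotypes.

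**Figure D3:**
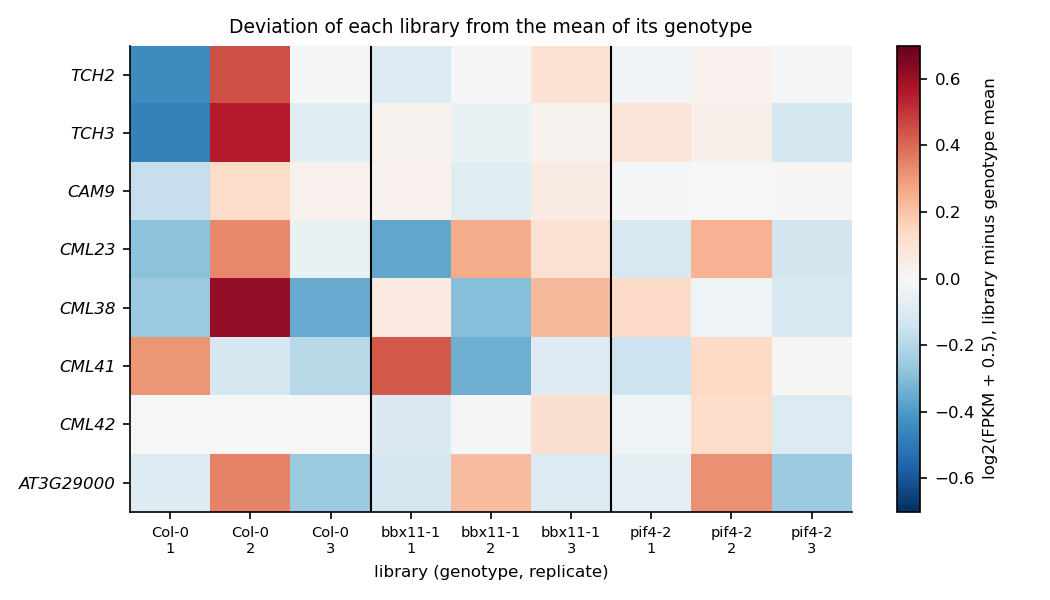
Deviation of each library (columns, by genotype and replicate) from the mean of its own genotype for the 8 tested members (rows), in log2(FPKM + 0.5); red is above the genotype mean and blue below it. The columns of Col-0 libraries 1 and 2 hold the strongest colours for *TCH2* and *TCH3*, while the *pif4-2* columns are pale for both.

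Several members lie beside genes of canonical calmodulin, the small conserved sensor from which the CMLs diverged. *TCH2* lies 4847 bp from *CAM1*, *TCH3* lies 483 bp from *CAM2* and 38 bp from the EF-hand gene AT2G41090, and *CML23* lies 2720 bp from *CAM4*. *CAM1* was at 109 ± 11.1 FPKM in Col-0, 102 ± 1.49 FPKM in *bbx11-1* and 99.9 ± 5.46 FPKM in *pif4-2* (SD, n = 3). Its log2 difference from Col-0 was -0.12 (SE 0.08, limma adjusted p = 0.546) in *pif4-2*, beside 0.93 for *TCH2*. *CAM2* was at 46.7 ± 5.42 FPKM in Col-0 and 61.9 ± 3.96 FPKM in *pif4-2*, higher by 0.41 (SE 0.09, limma adjusted p = 0.0304), beside 1.23 for *TCH3*. AT2G41090, on the other side of *TCH3*, was at 43.1 ± 10.8 FPKM in Col-0 and 43.7 ± 2.30 FPKM in *pif4-2* (log2 difference 0.05, SE 0.15, limma adjusted p = 0.918). It was named here for its position. *CAM4* was at 117 ± 10.3, 116 ± 7.91 and 115 ± 6.78 FPKM in Col-0, *bbx11-1* and *pif4-2*, far above *CML23* in every library. In the tandem pair, *CML38* was at 26.33 to 31.19 FPKM in *pif4-2* and AT1G76640 at no more than 0.31 FPKM.

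**Figure D4:**
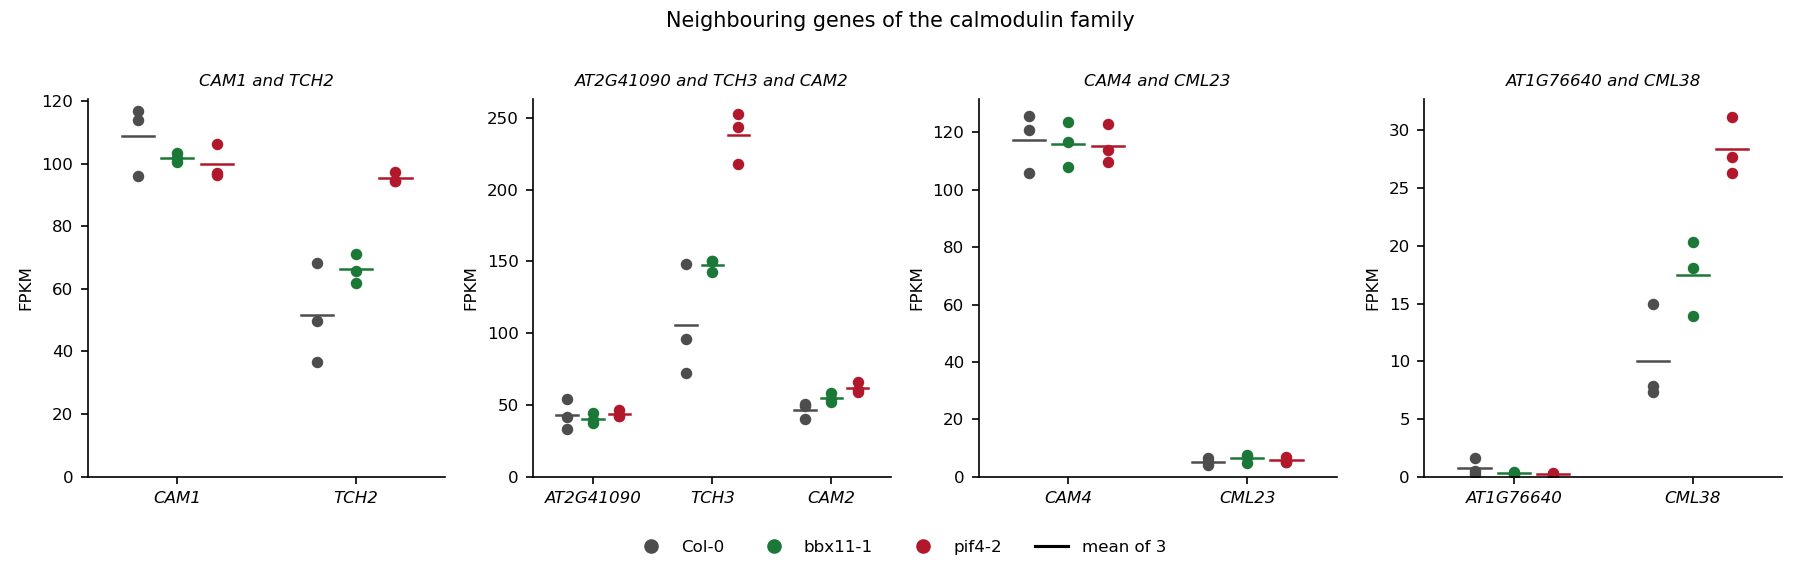
FPKM (y axis from 0) in the 9 libraries of members and the calmodulin-family genes that lie beside them, in 4 chromosomal neighbourhoods; points are libraries coloured by genotype and lines are means of 3. *TCH2*, *TCH3* and *CML38* step up from Col-0 to *pif4-2* while *CAM1*, *CAM4* and AT2G41090 keep overlapping levels.

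The rest of the family served as a comparison: 47 other calmodulin, *CML* and EF-hand loci, of which 29 passed the filter. None of the 29 was changed in any of the 3 comparisons by limma. At an unadjusted p below 0.05 there were 4 in *bbx11-1* against Col-0, 7 in *pif4-2* against Col-0 and 3 between the mutants, out of 29 each time, where 10.7%, 16.6% and 14.9% of all tested genes were below it. The median log2 difference was 0.07 in *pif4-2* and -0.02 in *bbx11-1*. Every mutant library was above every Col-0 library for 5 of 29 in *pif4-2* and 3 of 29 in *bbx11-1*. Of all tested genes this held for 10.2% and 6.78%. Every mutant library was below for 2 of 29 in each mutant, against 2318 and 1114 of the 19169 tested genes. The most abundant were *CAM3* (163 FPKM over the 9 libraries) and *CAM7* (122 FPKM), with log2 differences in *pif4-2* of -0.14 (SE 0.07, limma adjusted p = 0.389) and -0.18 (SE 0.09, limma adjusted p = 0.324). In *pif4-2*, 3 of the 29 had an adjusted p below 0.05 at less than 2-fold. Beside *CAM2* these were *MSS3* (AT2G43290) and the EF-hand gene AT3G10300, named after their values were seen. *CAM2* (51.99 to 58.17 FPKM in *bbx11-1*) and AT3G10300 had all 3 genotypes separate, in the same order as *CAM9*. AT3G10300 ranged from 9.09 to 11.3 FPKM in Col-0, from 12.42 to 13.47 FPKM in *bbx11-1* and from 13.69 to 15.82 FPKM in *pif4-2*. *MSS3* ranged from 27.96 to 37.96 FPKM in Col-0, from 31.70 to 37.35 FPKM in *bbx11-1* and from 50.13 to 53.55 FPKM in *pif4-2* (0.61, SE 0.11, limma adjusted p = 0.00875). Like *CML42* it was lower in *bbx11-1* than in *pif4-2* (-0.55, SE 0.11, limma adjusted p = 0.0279). Among the 47 loci, 18 did not pass the filter.

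A list of 22 other loci known for rapid transcript increase on touch or wounding was also chosen with earlier results of these data known. Its values against Col-0 are therefore a description. The counts and adjusted p below set single genes beside all tested genes and are no test of the list. Of the 22 loci, 21 were tested. In *pif4-2* against Col-0, 7 of them were changed, all higher (0.783% of all tested genes), and 14 did not pass. *TCH4*, a xyloglucan endotransglucosylase of the cell wall found in the same touch screen as *TCH2* and *TCH3*, was at 57.05, 110.18 and 71.54 FPKM in Col-0, at 142.31, 131.54 and 131.70 FPKM in *bbx11-1* and at 279.92, 258.62 and 227.01 FPKM in *pif4-2*. It had the same high second Col-0 library as *TCH2* and *TCH3*, but here all 3 genotypes were separate. Its log2 difference from Col-0 was 1.72 (SE 0.19, limma adjusted p = 0.000479) in *pif4-2* and 0.81 (SE 0.19, limma adjusted p = 0.107) in *bbx11-1*. The zinc finger gene *RHL41*, also called *ZAT12*, ranged from 13.89 to 15.38 FPKM in Col-0, from 24.13 to 27.98 FPKM in *bbx11-1* and from 30.84 to 33.75 FPKM in *pif4-2*. It was higher by 1.14 (SE 0.08, limma adjusted p = 7.82e-05) in *pif4-2* and by 0.79 (SE 0.08, limma adjusted p = 0.00365) in *bbx11-1*, the latter short of 2-fold. The differences of the others named were 1.24 for the membrane protein gene *NHL3* and 1.23, 1.2 and 1.14 for the transcription factor genes *WRKY33*, *WRKY40* and *WRKY53*. Without the first Col-0 library *NHL3* (1.00) and *WRKY53* (0.95) fell below the 2-fold limit, and without the second *pif4-2* library *WRKY53* did (0.99). In *bbx11-1*, *WRKY40* was the 1 of 21 that was changed (0.0887% of all tested genes; log2 difference 1.08, SE 0.15, limma adjusted p = 0.0131), a call lost without library 1 (0.93) or 3 (1.11) of Col-0 or library 3 of *bbx11-1* (0.94). Every mutant library was above every Col-0 library for 17 of 21 in *pif4-2* and 13 of 21 in *bbx11-1*, against 10.2% and 6.78% of all tested genes. The median log2 differences were 0.77 and 0.59, beside -0.02 and 0.00 over all genes, and the list was not compared with the members by a test. Between the mutants 0 of 21 were changed by limma, with 8 at an unadjusted p below 0.05 (14.9% of all genes). Only *TCH4* had an adjusted p below 0.05 there. It was lower in *bbx11-1* than in *pif4-2* (-0.91, SE 0.19, limma adjusted p = 0.0301), short of 2-fold. The part of the 21 genes in the values of the calmodulin-like genes was not tested.

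Further groups of calcium signalling, also chosen with earlier results of these data known, were examined. Their counts and adjusted p likewise set single genes beside all tested genes and are no test of the groups. In *pif4-2* against Col-0, 0.783% of all tested genes were changed and higher and 0.35% changed and lower. Of the calmodulin-binding transcription factors (CAMTA and CBP60 families), 8 of 9 were tested. In that comparison 1 was changed, *CBP60G*, a regulator of salicylic acid synthesis. It rose from 3.77 ± 1.06 FPKM in Col-0 to 8.39 ± 0.467 FPKM in *pif4-2* (SD, n = 3), by 1.09 on the log2 scale (SE 0.17, limma adjusted p = 0.00356). The call was lost without the first or without the last Col-0 library (0.98 and 1.00). *CBP60G* was also lower in *bbx11-1* than in *pif4-2* (-0.75, SE 0.17, limma adjusted p = 0.0415), short of 2-fold. The most abundant of them, AT4G16150 and AT5G62570, differed by 0.01 (SE 0.08) and 0.66 (SE 0.15) in *pif4-2*, with limma adjusted p of 0.960 and 0.0266. Of the calcium-dependent kinases and CBL sensors, all 11 were tested and *CPK28* was changed in *pif4-2* (1.02, SE 0.13, limma adjusted p = 0.0014). Without the first Col-0 library it was at 0.94, and without the first or the second *pif4-2* library at 0.98. *CPK28* ranged from 13.06 to 16.24 FPKM in Col-0, from 18.10 to 25.76 FPKM in *bbx11-1* and from 27.05 to 31.78 FPKM in *pif4-2*. The most abundant of that group, *CPK32*, stayed just under 2-fold in *pif4-2* (0.99, SE 0.11, limma adjusted p = 0.000479), and *CPK5* differed by 0.19 (SE 0.07, limma adjusted p = 0.202). In *bbx11-1* against Col-0, 0 of the 8 and 0 of the 11 were changed by limma. At an unadjusted p below 0.05 there were 3 and 3. Of all tested genes, 0.0887% were changed and higher in that comparison, 0.0574% changed and lower, and 10.7% below that unadjusted p. A list of 20 loci held calcium channels, pumps and exchangers and also the receptor kinase gene *FER*. Of these, 19 were tested and 0 were changed by limma in any comparison. At an unadjusted p below 0.05 there were 3, 6 and 1 in *bbx11-1*, in *pif4-2* and between the mutants. In these comparisons 10.7%, 16.6% and 14.9% of all tested genes were below it. The vacuolar exchanger gene *CAX1* was the most abundant (221, 253 and 257 FPKM on average in Col-0, *bbx11-1* and *pif4-2*), followed by the receptor kinase gene *FER* (59.1, 74.2 and 73.5 FPKM).

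**Figure D5:**
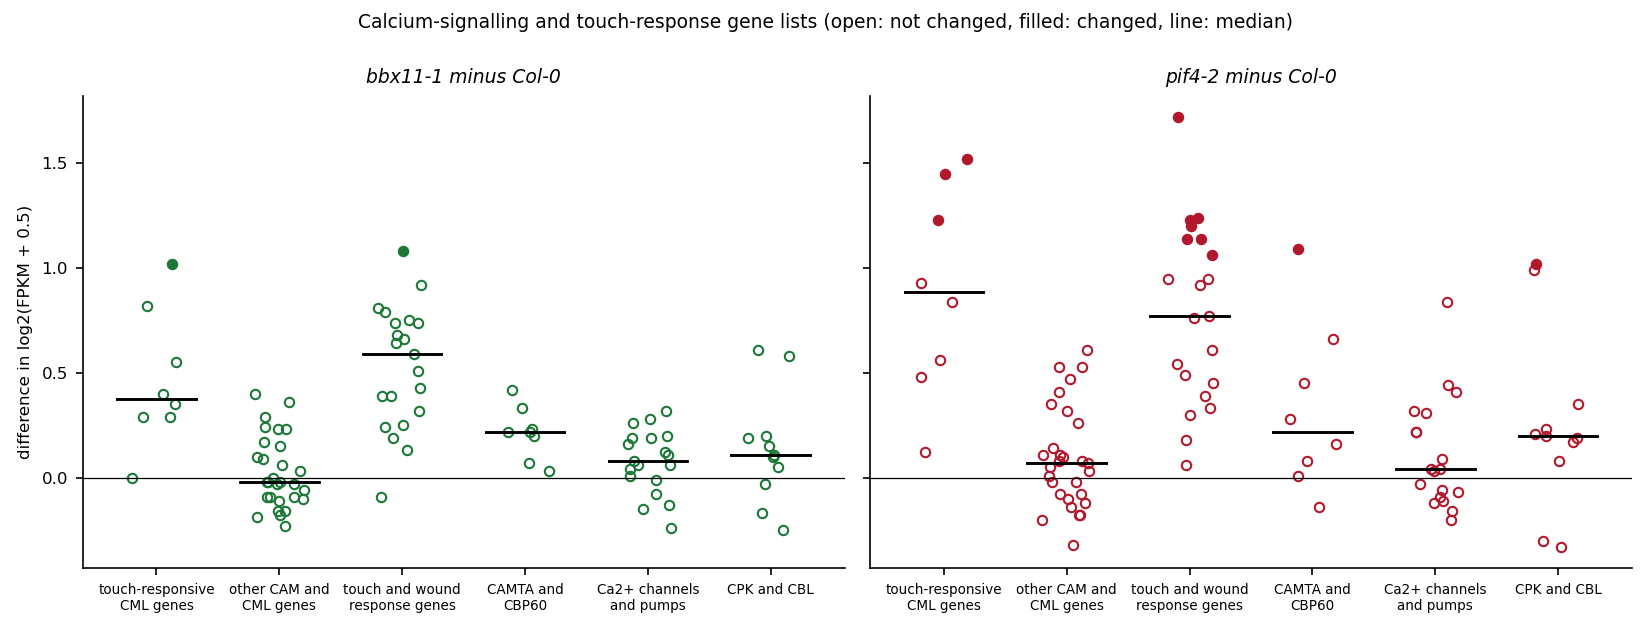
Differences from Col-0 in log2(FPKM + 0.5) of single genes (points) in 6 lists of calcium-signalling and touch-response genes, for *bbx11-1* (left) and *pif4-2* (right); filled points passed both thresholds and lines are medians. In *pif4-2* the medians are 0.89 for the tested members, 0.07 for the other calmodulin and *CML* genes and 0.77 for the touch and wound response genes. The members, labelled touch-responsive, include AT3G29000, which was selected for its higher values in both mutants.

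The genes whose levels ran most like those of the members were sought over the 9 libraries, as the Pearson correlation with the mean of the 8 tested members after each was standardised. Among 17699 candidates the 6 highest were AT1G69890, an actin cross-linking protein (0.993), AT2G22880, a VQ motif protein (0.985), AT1G76600, annotated as a poly polymerase (0.985), the dehydration-induced *ERD15* (0.984), the GRAS gene *SCL13* (0.984) and AT1G02660, an alpha/beta hydrolase (0.984). None of the 6 was in the lists above. With the genotype means subtracted the correlations were still 0.885 to 0.969. These 9 libraries share 3 genotypes, and the values are a description. *ERD15* was the most abundant, at 381, 439 and 526 FPKM on average in Col-0, *bbx11-1* and *pif4-2*, and AT1G69890 was at 16.9, 24.4 and 34.7 FPKM.

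The 250 bases upstream of the annotated gene start were searched, on both strands, for 4 short motifs. These were CGCGTT, a core bound by CAMTA factors and known from rapid wound responses, CACGTG, the G-box bound by PIF and other factors, CATGTG, another PIF-bound element, and TTGAC, the core of the WRKY-bound W-box. The sequences of the 2 related pairs are shown, read from TAIR10.1 (RefSeq), since *TCH2* and *CML23*, and *CML38* and AT1G76640, had such different levels. Capitals mark matches to any of the 4 motifs or their reverse complements.
TCH2 (chr5:14999620-14999869, minus strand): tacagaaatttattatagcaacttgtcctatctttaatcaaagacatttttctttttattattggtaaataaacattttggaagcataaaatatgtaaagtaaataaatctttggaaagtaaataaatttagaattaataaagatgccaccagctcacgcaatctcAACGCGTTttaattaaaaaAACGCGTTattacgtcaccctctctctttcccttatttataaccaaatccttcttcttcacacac
CML23 (chr1:24771394-24771643, minus strand): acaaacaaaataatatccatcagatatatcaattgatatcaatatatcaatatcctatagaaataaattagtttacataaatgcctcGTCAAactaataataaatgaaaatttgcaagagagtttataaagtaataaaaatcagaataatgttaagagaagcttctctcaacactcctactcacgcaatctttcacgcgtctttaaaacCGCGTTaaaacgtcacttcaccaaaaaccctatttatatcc
CML38 (chr1:28768139-28768388, minus strand): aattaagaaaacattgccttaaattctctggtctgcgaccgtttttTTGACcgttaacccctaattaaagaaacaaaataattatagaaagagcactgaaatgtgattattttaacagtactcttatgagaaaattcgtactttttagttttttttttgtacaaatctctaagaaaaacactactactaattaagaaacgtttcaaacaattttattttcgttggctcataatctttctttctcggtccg
AT1G76640 (chr1:28765867-28766116, minus strand): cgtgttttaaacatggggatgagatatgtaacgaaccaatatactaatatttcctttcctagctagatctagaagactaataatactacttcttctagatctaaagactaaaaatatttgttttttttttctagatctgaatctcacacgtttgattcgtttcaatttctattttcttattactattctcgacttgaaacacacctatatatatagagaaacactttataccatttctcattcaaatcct
CGCGTT was present in 2 of the 10 windows, those of *TCH2* and *CML23*, and in 2.59% of 27443 protein-coding genes. *TCH2* held 4 matches in 2 palindromes, in which a match on each strand overlaps the other, starting 84 and 65 bases before the gene start for the leftmost of each, and *CML23* held 1, starting 41 bases before it. CACGTG was in 0 of 10 windows and in 6.49% of all genes, CATGTG in 1 of 10 (*CML37*) and 11.1%, and TTGAC in 5 of 10 and 44.9%. Over 1000 bases the shares were 2 of 10 and 8.66% for CGCGTT, 0 of 10 and 14.8% for CACGTG, 2 of 10 and 37.7% for CATGTG, and 9 of 10 and 88.1% for TTGAC. The longest run of bases shared by the windows of 2 members was 12, in 3 of 45 pairs. Matches describe these letters only and are no measure of binding.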

How the data were processed

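Poly(A) RNA of 4-d-old seedlings was sequenced by the authors, who mapped reads to TAIR10 with Hisat2 and counted them per gene with HTSeq, as the methods state. The deposited values are FPKM, rounded to 2 decimals by the authors, 1 per locus and library. How FPKM was derived from the counts, the strand setting and the treatment of reads with several alignments are not given in the sources used here. The methods and the labels name different sequencers.

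The 10 members and the gene lists were chosen with earlier results of these data known, so p-values of single listed genes are no test of a list. Groups and replicate numbers came from the sample labels. The p-values set a difference against the spread among replicate libraries, pooled over the 3 genotypes and moderated across genes. Because FPKM is not a count, log2(FPKM + 0.5) was fitted with limma 3.58.1 (R 4.3.3; lmFit, eBayes with trend), with all 9 libraries in 1 fit and 6 residual degrees of freedom, for 19169 genes, those that averaged 1 FPKM or more in any genotype. Fold changes on this scale understate those of low genes. p-values were adjusted over all tested genes (Benjamini-Hochberg), and changed means an adjusted p below 0.05 with at least 2-fold. With 3 libraries a genotype, no test of outlying libraries was made.

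Named were all members, *CAM1*, *CAM2* and *CAM4*, *BBX11* and *PIF4*, of each list the changed genes (at most 6, by the largest difference from Col-0) and the 2 most abundant, and the 6 genes most like the members. Between Col-0 and *bbx11-1*, libraries of the same number shared deviations from their genotype means (correlations across genes 0.549, 0.287 and 0.275), which by a limit of 0.1 in every pair counts as paired. Since the 3 deviations of a genotype sum to 0, these are not independent. Those of *pif4-2* with Col-0 (0.0217 to 0.0717) and with *bbx11-1* (-0.0082 to 0.0921) were not paired. A replicate block was an alternative.

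Positions, names and sequences came from RefSeq TAIR10.1, which matched 32835 of 33602 identifiers. Depth was inferred from the spacing of low values (68.6% to 75.3% within 0.1 of a whole read), and read numbers of single genes are approximate and cover counting error only. Python 3.11.15, pandas 2.3.3, numpy 2.4.6, Biopython 1.88 and matplotlib 3.10.9 were used.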

Additional observations from a re-analysis of the deposited data

How the results depend on the processing

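The 20 alternatives gave 860 values of single genes, of which 819 stayed on the same side of the threshold. Another 31 were no longer past it and 10 were newly past it. Many of the 860 are of genes not past it in the main fit. Leaving out a library of the genotype not compared leaves a difference as it was. The 819 are thus no measure of how stable the calls are: AT3G29000 in *bbx11-1* kept its call in 6 of 20 alternatives. Direction reversed for 0 of the values past it in either fit. Some values not past it changed sign near 0, such as *CML23* in *pif4-2* against Col-0 (0.12, and -0.02 without the first Col-0 library). The count of members past both limits in *bbx11-1* against Col-0, 1 as reported (AT3G29000, on the values it was selected on), was 0 with a pseudocount of 1, without the filter, with median-of-ratios scaling, with quantile normalization, without the trend and with only the genotypes compared, and 0 to 2 with each library left out. Over all genes that comparison gave 28, with 11 without the filter, 13 without the trend, 7 with only the genotypes compared, 85 by adjusted p alone, 65 at 1.5-fold, and 13 to 42 with a library left out. In *pif4-2* against Col-0 the count of members was 3, with 7 by adjusted p alone, 5 at 1.5-fold and 2 to 4 with a library left out. Over the other calmodulin and *CML* genes it was 3 and 1 in place of 0, and over all genes 927 and 544 in place of 217. Between the mutants, adjusted p alone gave 1 member, 1 other family gene and 445 of all genes in place of 0, 0 and 122, and 1.5-fold gave 304. All genes numbered 78 without the filter and 74 to 138 with a library left out. With the replicate block the members past both limits numbered 1, 3 and 0 in the 3 comparisons, and all genes 37, 237 and 145, so the block changed no count of members. *CML37* and AT1G76640, at under 2 FPKM in every library, are limited by depth. The causes of these shifts were not tested.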

Other observations

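Some genes of calcium transport and of calmodulin-binding regulators passed the adjusted p in *pif4-2* at less than 2-fold. They were picked after their values were seen. The calcium pump genes *ACA10* and AT3G22910 were higher than in Col-0 by log2 differences of 0.44 (SE 0.08, limma adjusted p = 0.0111) and 0.84 (SE 0.21, limma adjusted p = 0.0422), and the exchanger gene *CAX3* by 0.41 (SE 0.10, limma adjusted p = 0.0394). *SR1*, which encodes a CAMTA factor, was higher by 0.45 (SE 0.10, limma adjusted p = 0.0282). In *bbx11-1* the differences of these 4 genes from Col-0 were 0.26, 0.28, 0.20 and 0.22, with limma adjusted p of 0.246, 0.712, 0.510 and 0.476. The mechanosensitive channel genes *MSL9* and *MSL10* and the stretch-activated channel genes *MCA1* and *MCA2* were at -0.09, -0.12, -0.16 and 0.22 in *pif4-2*, with limma adjusted p of 0.834, 0.628, 0.339 and 0.542.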
